A study of Arabidopsis thaliana with 4 samples.

Results

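The cytochrome P450 genes of Arabidopsis thaliana were followed in seedlings given GSH, reduced glutathione. Members were the nuclear genes with a P450 symbol (CYP, a family number, a subfamily letter and a gene number) that the platform annotation gives as the single gene of a probe set. This rule found 22 genes with 1 probe set each, among 13356 genes named in the same way and 22746 probe sets tested. RefSeq lists 225 nuclear genes with such a symbol in 40 families, of which the 22 represent 5 families, so most P450 genes were not analysed here. The group is mainly the CYP71B subfamily, with 18 of its 35 genes in RefSeq, and the other members are CYP51G2, CYP78A9, CYP79A2 and CYP84A4. RefSeq calls CYP71B27 and CYP51G2 transcribed pseudogenes.

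Per the labels, seedlings of ecotype Columbia were grown for 15 days after germination. By their titles 2 arrays are controls, taken here as seedlings without GSH, and 2 come from treated seedlings, kept with GSH for 72 hours. The treatment protocol is worded alike on all 4 samples and the free-text descriptions speak of embryos, so the direction of every difference rests on the titles and, for the treated arrays, the source label. No transgene or mutation is named for either group. The labels state neither a GSH dose nor the age of the controls at harvest. The titles call the arrays of each group biological replicates. Whether these stem from separate cultures is unstated, and p-values therefore reflect the spread between arrays, whatever its source.

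Cytochrome P450 enzymes are heme-containing monooxygenases, in plants mostly anchored in the membrane of the endoplasmic reticulum, that take electrons from an NADPH-dependent reductase and oxidise small molecules. They shape hormones, sterols, phenolics, cuticle lipids and defence compounds. The CYP71 family belongs to the large plant-specific A-type group, and its B subfamily includes PAD3 (CYP71B15), which completes synthesis of the defence compound camalexin. Glutathione is known as a sulfur donor in camalexin and glucosinolate synthesis. PAD3 itself has no probe set with a single named gene in the annotation used and was not analysed here.

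Across the 22 genes, 5 were higher and 3 were lower on the GSH arrays at an adjusted p under 0.05 (limma, Benjamini-Hochberg over all probe sets), and 14 did not pass. CYP71B21, CYP71B22, CYP71B6, CYP71B26 and CYP84A4 rose, and CYP71B34, CYP78A9 and CYP71B38 fell. The share called, 36.4%, lies near the background, since 33.8% of all probe sets were called, 16.2% as higher and 17.5% as lower. At least 2-fold apart, with no overlap of the groups, were 3 members upward and 0 downward, beside 2.27% and 1.69% of all probe sets. The members had a median log2 difference of -0.08 against -0.01 for all probe sets, and a median size of 0.20 against 0.16 log2 units. Control and GSH arrays did not overlap for 19 of the 22 genes, beside 65.2% of all probe sets. The GSH values lay above both controls for 8 members (31.2% of all probe sets) and below both for 11 (34% of all probe sets).

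**Figure D1:**
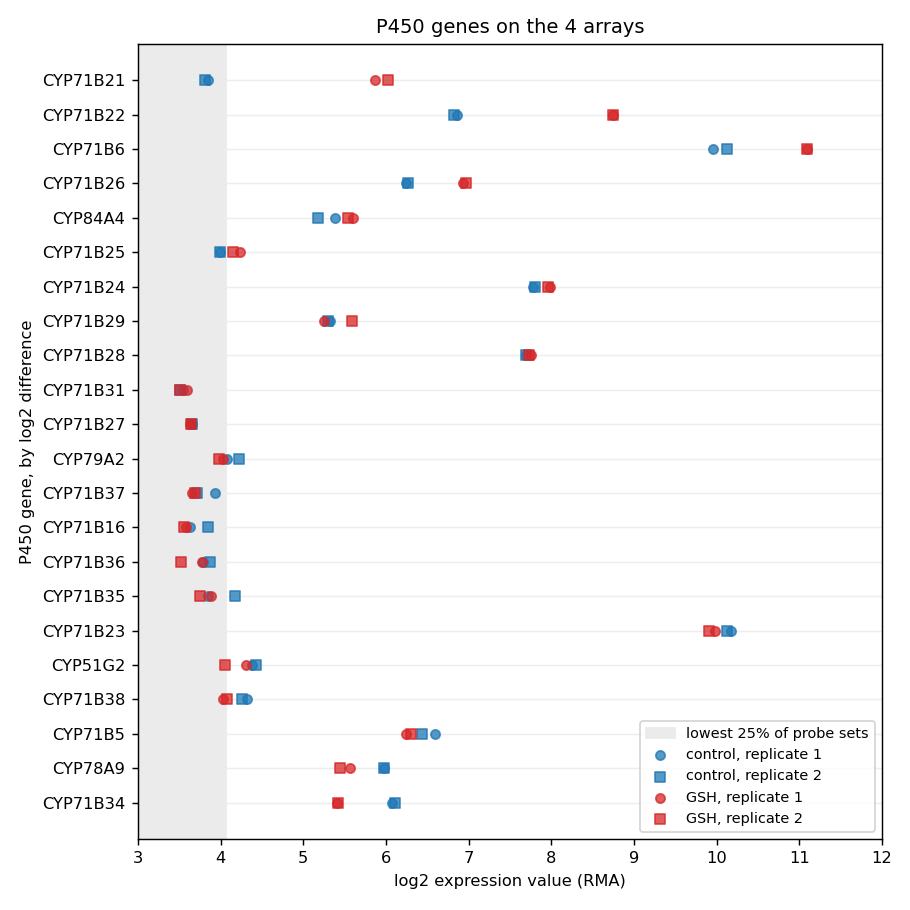
Log2 expression values (RMA, x axis) of the 22 P450 genes (rows, ordered by log2 difference), with control arrays in blue and GSH arrays in red, circles for replicate 1 and squares for replicate 2. In the top 4 rows the red points lie clearly to the right of the blue points, and the shaded band holds the lowest 25% of probe sets by mean value, up to 4.06.

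CYP71B21 showed the highest increase of the members. Control arrays gave log2 values of 3.85 and 3.81 and GSH arrays 5.87 and 6.03, so the groups stood far apart. The difference was 2.12 ± 0.08 log2 units (SE, n = 2 per group, limma adjusted p = 1.77e-05), or 4.35-fold. Both control values lie among the lowest 25% of probe sets, where a signal above background is not established, which leaves the fold uncertain.

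CYP71B22, the gene next to it on the chromosome, had log2 values of 6.86 and 6.83 on the control arrays and 8.74 and 8.75 on the GSH arrays. The arrays of each group nearly coincided. The difference of 1.91 ± 0.07 log2 units (limma adjusted p = 1.49e-05) is 3.75-fold, and here both groups lie above the lowest 25% of values.

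CYP71B6 is the member with a known role in indole defence metabolism, where it oxidises indole acetonitrile. Control arrays read 9.95 and 10.12, and both GSH arrays read 11.09 in log2 value. This is an increase of 1.05 ± 0.08 log2 units (2.07-fold, limma adjusted p = 0.000187). The 2-fold mark rests on control replicate 1, since the difference was 0.97 without that array, and without moderation of the variance the adjusted p was 0.0611.

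CYP71B26 rose by less. Controls read 6.24 and 6.27 and GSH arrays 6.93 and 6.96 in log2 value, again without overlap, which gives 0.69 ± 0.07 log2 units (1.61-fold, limma adjusted p = 0.000493). CYP84A4, an enzyme of arabidopyrone synthesis from phenolic precursors, stood at 5.38 and 5.18 on the control arrays and at 5.60 and 5.54 on the GSH arrays. Its difference of 0.29 ± 0.09 log2 units passed narrowly (limma adjusted p = 0.0479) and kept the call in 4 of 10 alternative settings.

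Among the lower genes, CYP71B34 had log2 values of 6.07 and 6.11 on the control arrays and 5.41 and 5.42 on the GSH arrays. The difference was -0.68 ± 0.07 log2 units (1.60-fold lower, limma adjusted p = 0.000523). The groups are separated by many times the gap between arrays of a group.

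CYP78A9, of a family that promotes organ growth and itself known for fruit and seed size, stood at 5.98 on both control arrays and at 5.57 and 5.44 on the GSH arrays. The decrease was clear of the replicate spread (-0.47 ± 0.08, limma adjusted p = 0.00355), but without moderation of the variance the adjusted p was 0.0913. CYP71B38 stood at 4.32 and 4.26 on the control arrays and at 4.03 and 4.08 on the GSH arrays. With a GSH mean of 4.057, just under the limit of the lowest 25% of values (4.061), the gene has no established signal above background on those arrays. Its difference of -0.23 ± 0.07 passed narrowly (limma adjusted p = 0.0448) and kept the call in only 1 of 10 alternative settings, with adjusted p-values of up to 0.203 among them.

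**Figure D2:**
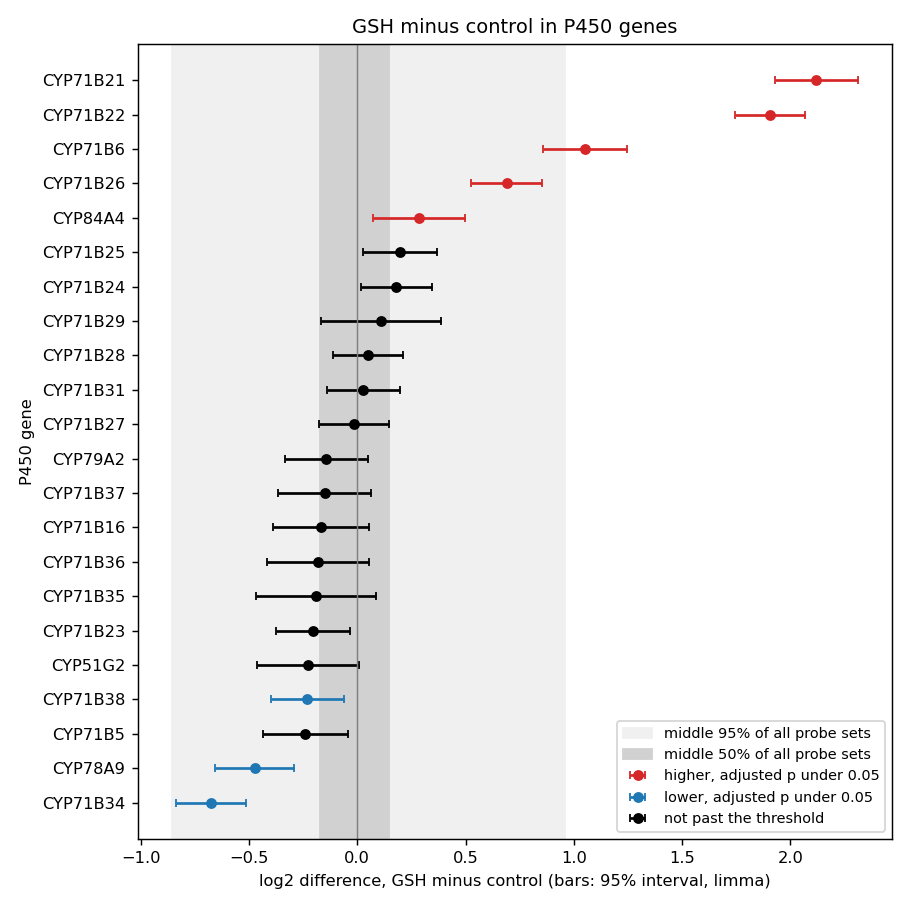
Log2 difference, GSH minus control (x axis), of each P450 gene with its 95% interval from limma; red and blue points passed the adjusted threshold, black points did not. Grey bands hold the middle 50% (-0.17 to 0.15) and the middle 95% (-0.86 to 0.96) of all probe sets, and CYP71B21, CYP71B22 and CYP71B6 lie outside the wider band.

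The 14 genes that did not pass had differences between -0.24 (CYP71B5) and 0.20 (CYP71B25). Their 95% intervals reached down to -0.47 at CYP71B35 and up to 0.39 at CYP71B29, so differences beyond these bounds are outside the intervals. Smaller ones were not resolved at the adjusted threshold with 2 arrays per group. The intervals are not adjusted for the number of probe sets. Those of CYP71B5 (-0.44 to -0.04), CYP71B23 (-0.38 to -0.04), CYP71B24 (0.02 to 0.34) and CYP71B25 (0.03 to 0.37) keep the same sign throughout. CYP71B23 stood at 10.17 and 10.12 on the control arrays and at 9.97 and 9.90 on the GSH arrays. That difference of -0.21 ± 0.07 did not pass (limma adjusted p = 0.0674), although the groups do not overlap and its adjusted p was 0.0466 with quantile normalization repeated and 0.011 with an intensity trend in the prior variance.

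CYP71B24 (0.18 ± 0.07) and CYP71B25 (0.20 ± 0.07) had higher values on both GSH arrays and did not pass, with limma adjusted p-values of 0.0895 and 0.076. CYP71B28 differed by 0.05 ± 0.07, CYP71B31 by 0.03 and the pseudogene CYP71B27 by -0.01. In CYP71B29 the GSH arrays stood at 5.25 and 5.59 and enclosed both control arrays (5.33 and 5.30). This gap of 0.34 between replicates is the widest of all members.

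CYP79A2, which starts the synthesis of the benzyl glucosinolate from phenylalanine, stood at 4.08 and 4.22 on the control arrays and at 4.03 and 3.98 on the GSH arrays. Its difference of -0.14 ± 0.08 did not pass (limma adjusted p = 0.229). The GSH mean of 4.01 lies in the lowest 25% of values, where a signal above background is not established. The pseudogene CYP51G2, of the family of sterol demethylases, stood at -0.23 ± 0.10. It did not pass either (limma adjusted p = 0.126), but did so without GSH replicate 1 (difference -0.35, adjusted p = 0.0347).

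From -0.24 to -0.14 lay 9 of the 22 members, 1 of them past the threshold, beside 9.06% of all probe sets. This range was drawn around the members' own values, so the count is a description only. Probe sets for Bacillus spike-in RNA moved on these arrays in the same direction, with 24 of 27 lower and a median of -0.26 (from -0.87 to 0.13). They were picked by name, without a record used here that such RNA was added. Several of them read the same transcript, so they are not separate controls. The signal of 25S rRNA, another control on the array, was lower by far more (-2.97 log2 units). The part of either in the P450 differences was not tested.

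The RefSeq annotation (assembly TAIR10.1) puts 11 of the 18 measured CYP71B genes into a single block on chromosome 3, from CYP71B16 (AT3G26150) to CYP71B37 (AT3G26330). The block holds 18 CYP71B genes, 2 of them annotated as pseudogenes, with 7 other genes between them. Along it, 3 members rose, 1 fell and 7 did not pass, so 36.4% were called here too. The differences ran from 2.12 at CYP71B21 to -0.68 at CYP71B34.

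Read in chromosomal order, CYP71B16 (-0.17) did not pass, and the neighbours CYP71B21 and CYP71B22 rose together. The next gene, CYP71B23 (-0.21), did not pass, nor did CYP71B24 (0.18) and CYP71B25 (0.20). CYP71B26 rose, CYP71B34 fell, and CYP71B35 (-0.19), CYP71B36 (-0.18) and CYP71B37 (-0.15) at the end of the block did not pass. The last 3 and CYP71B16 lie in the lowest 25% of values, where a signal above background is not established.

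Whether neighbours differ in their response was tested on the within-array difference between adjacent measured genes, a test chosen after the values were seen and fitted by limma over all 13212 neighbouring pairs of the genome. Of 12 pairs of neighbouring CYP71B genes 6 differed at an adjusted p under 0.05, and 38.5% of all pairs did, so unequal differences of neighbours were common genome-wide. Most of these CYP71B genes enter 2 pairs, so the pairs are not separate results. Genes in the lowest 25% of values enter 2 of the 6 pairs that differed and 3 of the 6 that did not pass, and those 5 contrasts carry the same limit as the dim genes. CYP71B22 and CYP71B23 are adjacent, and their differences lie 2.11 ± 0.12 log2 units apart (SE, limma adjusted p = 5.68e-08). CYP71B26 and CYP71B34, which moved in opposite directions, differ by -1.37 ± 0.12 (limma adjusted p = 1.75e-06), with a pseudogene between them. For the adjacent CYP71B21 and CYP71B22 the contrast was -0.22 ± 0.12 and did not pass (limma adjusted p = 0.196), a size as uncertain as the fold of CYP71B21, given its dim control values.

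**Figure D3:**
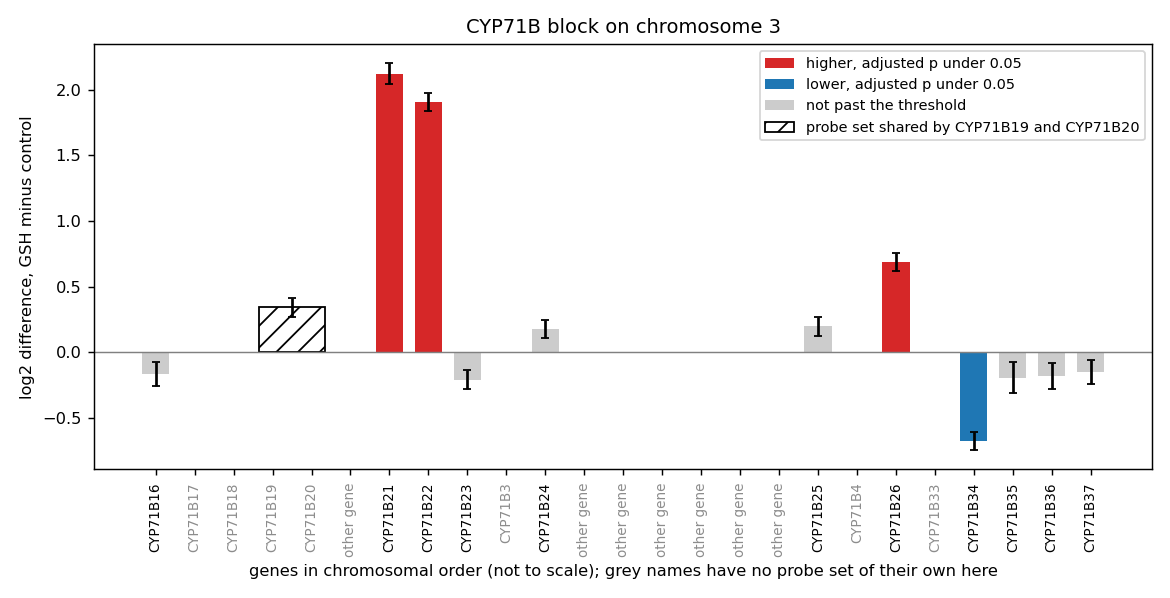
Log2 difference, GSH minus control (y axis, bars with SE), of the CYP71B genes of the chromosome 3 block in chromosomal order, not to scale; red and blue bars passed the threshold, grey bars did not, and grey names have no probe set of their own in the annotation used. CYP71B21 and CYP71B22 stand at 2.12 and 1.91 beside CYP71B23 at -0.21, and CYP71B26 (0.69) is followed by CYP71B34 (-0.68).

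CYP71B19 and CYP71B20, also in this block, share a probe set and are therefore no members. It stood at 10.83 and 10.91 on the control arrays and at 11.24 and 11.19 on the GSH arrays, higher by 0.34 ± 0.07 log2 units (limma adjusted p = 0.0105), and the separate genes cannot be told apart. CYP71B genes are close relatives, and whether probes of a gene also bind transcripts of its neighbours was not tested, since no probe sequences were used here.

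The other CYP71B members lie in smaller blocks or alone. On chromosome 1, CYP71B27, CYP71B28 and CYP71B29 form part of a block of 5 genes in which 0 of 3 measured members passed, with differences from -0.01 to 0.11. On chromosome 3, CYP71B5 (-0.24 ± 0.08, limma adjusted p = 0.0645) and CYP71B31 lie in a block of 4, and neither passed. Of the 2 measured CYP71B genes outside such blocks, CYP71B6 rose and CYP71B38 fell, as given above.

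Some P450 probe sets that the rule leaves out gave further values. They were picked by hand and are not a full account of such probe sets. CYP718, whose symbol has no subfamily letter, stood at 4.55 and 4.72 on the control arrays and at 4.17 and 4.25 on the GSH arrays, and was thus lower (-0.42 ± 0.08, limma adjusted p = 0.0084). CYP71B30P, which lies between CYP71B5 and CYP71B31, stood at 0.13 ± 0.10, and the probe set shared by CYP79C2 and AT1G58265 at 0.01 ± 0.07. Neither of these passed.

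Calls were read against the signal, taken as the mean over the 4 arrays. Of the 10 members whose mean lies above the median of all probe sets (5.37), 6 passed, and 54.9% of all probe sets above it did. Of the 12 members at or under it 2 passed, CYP71B21 and CYP71B38, beside 12.6% of all such probe sets. None of the 6 members in the lowest 25% of values passed with limma (0 also at an unadjusted p under 0.05), beside 3.71% of all such probe sets. The other 16 members lay above that limit, CYP71B21 and CYP71B25 only through their GSH arrays, so their own change put them there. In the other direction, CYP71B38 and CYP79A2 lay above it only through their control arrays. Their GSH means of 4.057 and 4.008 fall under the limit of 4.061. For CYP71B16, CYP71B27, CYP71B31, CYP71B35, CYP71B36 and CYP71B37 a signal above background is thus not established, and their values say little about a response.

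**Figure D4:**
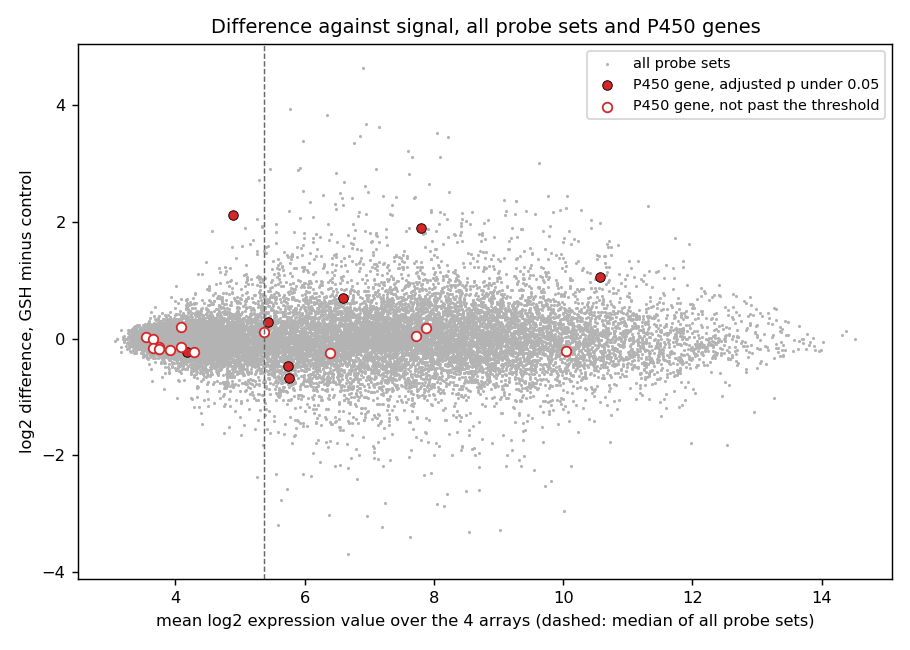
Log2 difference, GSH minus control (y axis), against the mean log2 value over the 4 arrays (x axis) for all 22746 probe sets (grey) and the 22 P450 genes (red, filled where the adjusted p is under 0.05). Differences of all probe sets narrow at the dim end, where most P450 genes that did not pass lie, and CYP71B21, at a mean of 4.89, lies above most probe sets of like signal.

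Genes that work beside P450 enzymes were read from 11 lists with 222 entries on redox partners and pathways, of which 22 genes were measured. In these lists 4 genes rose, 4 fell and 14 did not pass, again near the background of 33.8%. No gene of the lists on redox partners (the P450 reductases and cytochrome b5 proteins), on sterols and triterpenes or on cytokinins was measured, so the electron supply of P450 enzymes cannot be described.

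In the list on phenylpropanoids and flavonoids 2 of 7 measured genes rose, 1 fell and 4 did not pass. The list was not built around the arabidopyrone route of CYP84A4. LigB of that route, measured but outside the list, was higher by 0.67 ± 0.11 log2 units (limma adjusted p = 0.00415). This gene was picked by hand, so its value is a description only. AT3G13610 (F6'H1), which opens the route to the coumarin scopoletin, stood at 5.43 and 5.32 on the control arrays and at 7.59 and 7.60 on the GSH arrays. It rose by 2.22 ± 0.07 log2 units (limma adjusted p = 1.23e-05). CCR2, a cinnamoyl-CoA reductase, rose by 1.39 ± 0.08, and UGT78D1, which attaches a sugar to flavonols, fell by 0.70 ± 0.07. The GSH values of UGT78D1, 4.08 and 4.06, lie near the limit of the lowest 25% of values, so the size of its fall is uncertain. HCT of lignin synthesis (-0.18), DFR (0.14), BAN (0.07) and UGT78D2 (0.02) of the flavonoid route did not pass.

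For glucosinolates and camalexin 1 of 4 measured genes rose and 3 did not pass. UGT74B1, the glucosyltransferase of glucosinolate synthesis, had log2 values of 8.15 and 8.10 on the control arrays and 9.12 and 9.07 on the GSH arrays. AOP3 (0.14), GSTU20 (0.11) and BCAT4 (0.06) lie in the lowest 25% of values.

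In the hormone lists, where P450 enzymes make or inactivate the compounds, the brassinosteroid receptor gene BRL1 rose by 0.40 ± 0.07 log2 units (limma adjusted p = 0.00597, 1 of 1 measured). Its control values of 4.06 and 4.13 lie near the limit of the lowest 25% of values, so this size is uncertain. BGLU33, an enzyme that releases abscisic acid from its glucose ester, fell by 0.58 ± 0.12, a size that is uncertain because its mean lies in the lowest 25% of values. UGT71B6, which makes that ester, stood at 0.24 ± 0.08 and did not pass (limma adjusted p = 0.0629). None of the 3 gibberellin receptor genes GID1A, GID1B and GID1C passed with limma (2 lie under an unadjusted p of 0.05, GID1A at -0.21 and GID1B at 0.20, with adjusted p-values of 0.115 and 0.111). Of 2 jasmonate genes OPCL1 fell, and JMT (0.07), in the lowest 25% of values, did not pass.

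LYC, the lycopene cyclase of carotenoid synthesis, stood at 8.72 and 8.79 on the control arrays and at 8.16 and 8.17 on the GSH arrays. The difference was -0.59 ± 0.07 (limma adjusted p = 0.00103). In the list on cutin, suberin and wax, FACT (0.10) and WSD1 (-0.06) did not pass, and both lie in the lowest 25% of values.

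Tissue markers were read beside these genes. Of the root markers 3 of 11 were measured (PYK10, EXPA7 and EXPA18) and none passed with limma (1, PYK10, had an unadjusted p under 0.05). Their summed level was 5.80 to 5.84 log2 units on the control arrays and 5.64 to 5.80 on the GSH arrays. Each alone was dim, with mean values from 4.06 to 4.27, near the limit of the lowest 25% of values, in which PYK10 lies. These 3 markers therefore say little about roots. Of the green tissue markers 4 of 9 were measured and 2 fell (LHCB4.2 by 0.42 and RCA by 0.24), with summed levels of 13.34 to 13.40 on the control arrays against 13.07 to 13.16. Flower and seed markers were not measured. The part of tissue make-up in the P450 differences was not tested, and in whole seedlings fewer cells of a type and less RNA per cell cannot be told apart.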

How the data were processed

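Expression was measured on 4 Affymetrix one-colour arrays with 22810 probe sets. The deposited values are log2 expression values made with Affymetrix Expression Console and RMA, per the submitters' processing notes, and their versions are not given in the sources used here. RMA includes quantile normalization, so a shift shared by most transcripts would not be seen, and small differences of dim probe sets are compressed. Affymetrix control probe sets, 64 in number, entered no test.

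Gene names come from an old platform annotation, brought up to date through its gene identifiers with RefSeq symbols (assembly TAIR10.1). Of those tested, 13513 carry a single gene, 503 several and 8730 none. No coordinates or sequences are given, since neither a genome build nor sequences came with the files. RefSeq was used for symbols, pseudogene labels and gene order. Arrays were grouped by their titles, since the protocol text does not separate the groups.

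The comparison of GSH with control used limma 3.58.1 (R 4.3.3) on 22746 probe sets. The model held treatment alone, leaving 2 residual degrees of freedom beside a fitted prior of 4.55. P-values were adjusted after Benjamini-Hochberg and called under 0.05. Errors are moderated standard errors, and intervals cover 95%. No filter on low values was applied, and the number of arrays limits the precision. The scripts were tested on simulated data. No batch is named in the labels.

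Members named with full values are those past the threshold and at least 2-fold apart without overlap, the highest and lowest of a family with 3 or more members, and those with a listed role. Other members were named to account for the family. The P450 probe sets outside the rule, and LigB outside the lists, were picked by hand. Members and lists were chosen with earlier results of these data known. A chitinase gene that shares the symbol CHI was left out of the flavonoid list.

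Alternatives were centring on array medians, repeated quantile normalization, removal of the lowest 25% of probe sets, no variance moderation, an intensity trend with robust prior, a replicate block, leaving out each array, other rules for symbols and probe sets, and an added fold threshold of 1.5.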

Additional observations from a re-analysis of the deposited data

How the results depend on the processing

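CYP71B21, CYP71B22, CYP71B26 and CYP71B34 kept their call and direction in all 10 alternative fits, CYP71B6 and CYP78A9 in 9, CYP84A4 in 4 and CYP71B38 in 1. Without variance moderation 3 P450 genes were higher and 1 lower in place of 5 and 3, and 2 pathway partner genes were lower in place of 4. With at least 1.5-fold required besides the adjusted p, 4 were higher and 1 lower. The median over the P450 genes turned from -0.079 to 0.080 when the lowest 25% of probe sets were removed, which takes away 6 dim members, and ran from -0.071 to -0.024 when an array was left out. At least 2-fold increases numbered 2 without control replicate 1, and 3 without any other array. Differences that changed sign were those of genes not called, CYP71B27 (0.0088 with arrays centred on medians), CYP71B31 (from -0.011 without GSH replicate 1 to 0.068 without GSH replicate 2) and CYP71B29 (from -0.061 without GSH replicate 2 to 0.28 without GSH replicate 1). CYP71B35 passed without control replicate 1 (-0.35, limma adjusted p = 0.0443).

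Same-numbered arrays did not deviate together (correlation of deviations -0.103), so the numbers are not shown to pair the arrays, and the fit with the replicate block gave 4 higher and 2 lower P450 genes. With crossed pairing, an alternative chosen after seeing the data, 4 were higher and 2 lower. Each gene had a single probe set, so the choice of probe set could not change any count. The other rules for symbols also gave 5 higher and 3 lower P450 genes.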
